A study of Mus musculus with 24 samples.

Results

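Of the 758685 tiles of 100 bp that had a methylation level in brain, heart and liver of adult mice, 1999 (0.263%) were low in brain and high in both of the other tissues, and these 1999 tiles are described here. The members were chosen by their tissue mean methylation levels, and a tile was a member when its brain mean lay at least 0.4 below its liver mean and at least 0.4 below its heart mean, with the liver and heart means within 0.2 of each other. Because the rule used these levels, the levels of the members in the 3 tissues are given as a description and carry no test. The tiles came from enhanced reduced representation bisulphite sequencing (eRRBS), in which DNA is cut at sites such as CCGG and unmethylated cytosines are converted. A level is therefore the fraction of reads, between 0 and 1, that were methylated at the CpGs of a tile. Liver was taken from 6 male and 6 female C57BL/6J mice, and brain and heart from 3 males and 3 females each, all untreated and 24 weeks old. The tissues share animals: the 6 mouse numbers of the brain and heart libraries are also found among the liver libraries, and the mice were bred as littermate pairs. A single piece of each organ was used (left lobe of liver, tip of the heart, front of the brain), and each piece held a mixture of cell types. The deposited columns are only numbered within a tissue, so no library was assigned a mouse or a gender here, and libraries are named by tissue and column.

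Most CpGs of mammalian DNA are methylated in adult tissues, and the exceptions are CpG islands, which are mainly unmethylated in every tissue, and shorter stretches away from islands that lose methylation in some cell types. Such stretches often coincide with enhancers and with promoters that have few CpGs, where bound transcription factors go together with low methylation. Neurons and glia differ from each other in these stretches, and a bulk level from brain averages over both. A low level in a minority of cells and a partial level in all cells cannot be told apart in such bulk samples.

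The sequences below come from 8 of the regions that held the most members, each by its member with the largest difference outside untranslated regions, and from 3 of the 10 tiles with the largest difference of all. In Vxn this left out the tile with the largest difference. They were read from the plus strand of the mouse genome (RefSeq, GRCm38.p6, the same coordinates as mm10), with each CpG, the dinucleotide whose methylation was measured, in capitals.

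Zfpm1 coding sequence, chr8:122335801-122335900: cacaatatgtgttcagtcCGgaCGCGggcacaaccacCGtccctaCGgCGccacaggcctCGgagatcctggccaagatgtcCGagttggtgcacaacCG

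Vxn first intron, chr1:9601701-9601800: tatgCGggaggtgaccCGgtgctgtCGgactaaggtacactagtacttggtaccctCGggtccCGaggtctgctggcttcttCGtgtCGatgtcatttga

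Lrrc4 coding sequence, chr6:28831401-28831500: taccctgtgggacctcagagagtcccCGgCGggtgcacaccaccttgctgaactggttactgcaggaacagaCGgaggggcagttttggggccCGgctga

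Tnfaip2, chr12:111445901-111446000: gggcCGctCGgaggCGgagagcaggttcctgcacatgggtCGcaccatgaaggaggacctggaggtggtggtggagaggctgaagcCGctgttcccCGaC

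Intergenic, chr10:117478201-117478300: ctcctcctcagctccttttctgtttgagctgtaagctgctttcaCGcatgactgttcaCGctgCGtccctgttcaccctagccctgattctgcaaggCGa

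Intergenic, chr17:67500101-67500200: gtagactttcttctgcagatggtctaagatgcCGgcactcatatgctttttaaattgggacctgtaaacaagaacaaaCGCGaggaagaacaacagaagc

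Intergenic, chr15:12093401-12093500: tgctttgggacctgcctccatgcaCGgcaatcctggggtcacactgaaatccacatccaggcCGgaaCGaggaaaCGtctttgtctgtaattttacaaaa

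A330102I10Rik, chr13:29015401-29015500: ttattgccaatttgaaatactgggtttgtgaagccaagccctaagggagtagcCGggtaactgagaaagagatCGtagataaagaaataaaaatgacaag

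Tubb2b exon 4, chr13:34127901-34128000: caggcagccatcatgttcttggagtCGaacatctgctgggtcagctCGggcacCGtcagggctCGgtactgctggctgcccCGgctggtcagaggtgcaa

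Mir99ahg intron 4, chr16:77537001-77537100: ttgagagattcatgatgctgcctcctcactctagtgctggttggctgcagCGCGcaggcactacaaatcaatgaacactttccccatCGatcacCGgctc

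Ank2 intron 1, chr3:127294201-127294300: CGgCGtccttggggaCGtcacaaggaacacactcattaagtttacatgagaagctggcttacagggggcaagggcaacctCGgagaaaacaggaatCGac

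These 11 tiles held from 2 to 9 CpGs, spaced more widely in the intergenic tiles than in the Zfpm1 tile. A final capital C belongs to a CpG that ends in the next tile.

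The tissue named for each table was checked against promoters of cell type genes. Of 13 hepatocyte genes with promoter tiles, 10 were lowest in the liver table, and of 21 cardiomyocyte genes 14 were lowest in the heart table. The neural promoters did not mark the brain table as clearly. The brain table was lowest for 20 of 26 genes of synapse scaffolds and vesicles, but for 16 of 40 neural transcription factors (20 in heart), 10 of 23 myelin genes (9 in heart), 9 of 18 astrocyte genes (7 in heart) and 2 of 10 microglia genes (7 in heart). It was lowest for 12 of 23 glutamate receptor genes, 14 of 22 GABA and glycine genes, 22 of 37 adhesion genes, 22 of 34 channel genes and 19 of 32 neuropeptide and monoamine genes. Apart from the microglia list, these promoters had brain medians of only 0.0116 to 0.0597. The 3 tables were made separately, and a tile was kept at over 10x coverage in all replicates, but the depth above that minimum is unknown, since the tables hold fractions without read counts. No libraries of a tissue were copies of each other, with correlations across tiles of 0.942 to 0.976 in brain, 0.964 to 0.977 in heart and 0.965 to 0.977 in liver, and at most 3.3% of tiles equal in a pair.

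The members were intermediate rather than unmethylated in brain. Their brain means ran from 0.0625 to 0.564 with a median of 0.368, while the heart means had a median of 0.846 and the liver means one of 0.898. Over all tiles the medians were 0.795 in brain, 0.719 in heart and 0.808 in liver, so the members were above the usual level in heart and liver and far below it in brain. Only 9 members had a brain mean under 0.1 and 101 lay between 0.1 and 0.2, while 731 lay between 0.3 and 0.4 and 647 between 0.4 and 0.5. The liver mean exceeded the heart mean in 84.5% of members, as it did in 77.0% of all tiles. The smaller of the differences from liver and from heart, called the gap from here on, had a median of 0.449, and it reached 0.5 in 462 members, 0.6 in 74 and 0.7 in 5.

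**Figure D1:**
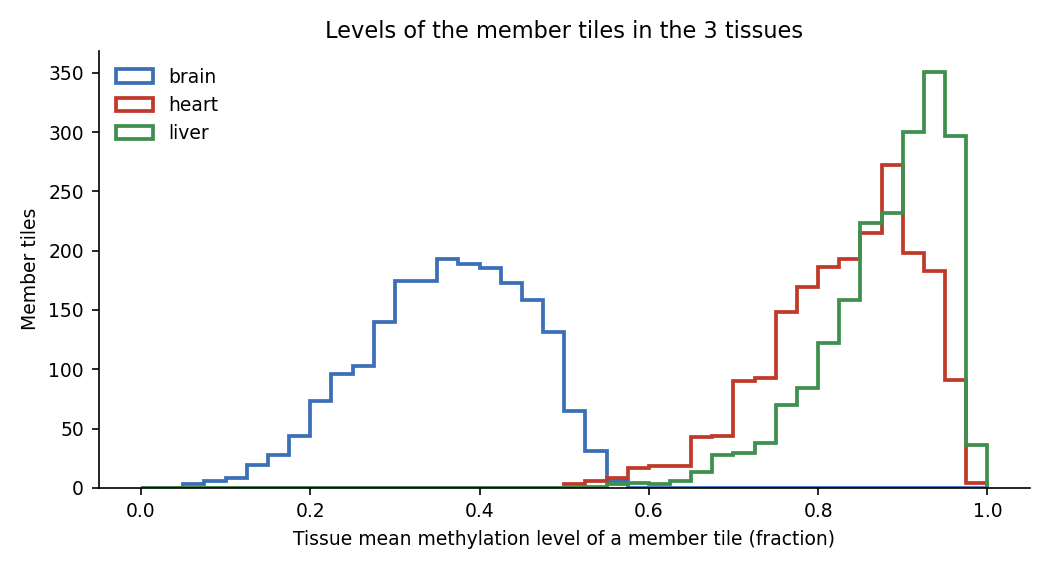
Number of member tiles (vertical axis) by the mean methylation level of the tile (horizontal axis, fraction) in brain (6 libraries), heart (6) and liver (12), in bins of 0.025. The brain means spread between 0.0625 and 0.564, and the heart and liver means crowd towards the methylated end with medians of 0.846 and 0.898.

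The edge of the rule cut through a continuum. Just inside it lay a tile in intron 1 of Megf11, an intergenic tile at chr5:106164001-106164100 and a tile in intron 4 of Osbpl8, each with a gap of 0.4 and brain means of 0.364, 0.499 and 0.482. Just outside it lay an intergenic tile at chr14:68040701-68040800, a tile in intron 1 of Pcbp4 and one in intron 2 of Ppm1l, each with a gap of 0.3998 and brain means of 0.225, 0.426 and 0.243. A further 58 tiles had both differences of at least 0.4 and were left out because liver and heart lay over 0.2 apart. The same rule found 9247 tiles low in liver only (1.22% of all tiles), 4518 low in heart only (0.596%) and 1650 high in brain only (0.217%).

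The libraries of the tissues were well apart at the members. In 1961 of the 1999 members (98.1%) the highest of the 6 brain libraries lay below the lowest of the 18 heart and liver libraries, an arrangement found in 2.6% of all tiles, and in 1806 members at least 0.1 lay between them, against 0.854% of all tiles. The rule used the means of these libraries, and the counts describe how tightly the libraries followed their tissue mean. The median SD over the libraries at the members was 0.0984 in brain, 0.0438 in heart and 0.0422 in liver. Whether the intermediate brain levels of the members went with the larger SD was not tested. In the tiles low in heart only the brain SD was also the largest, 0.0904 against 0.054 in heart and 0.0649 in liver. It was the largest again in the tiles high in brain only (0.0945), and not in those low in liver only (0.0503, against 0.0677 in liver).

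Brain library 1 stood apart from the other 5 at these tiles. Its median over the members was 0.435, and those of the other brain libraries ran from 0.317 to 0.352. It was the highest brain library in 44.8% of members and in 13.3% of all tiles, and its level exceeded the mean of the other 5 in 1474 members (73.7%) and in 42.0% of all tiles. Its deviation was in the opposite direction in other classes of tile. In the tiles low in heart only its median was 0.650 against 0.757 to 0.792 in the other brain libraries, and in the tiles high in brain only it was 0.609 against 0.718 to 0.773, while in the tiles low in liver only it was 0.852 against 0.857 to 0.879. In the members and the tiles high in brain only, library 1 was shifted towards heart and liver, which the rule kept close together. In the tiles low in heart only it was shifted towards heart. Where only liver differs, it lay near the other brain libraries but below all of them. Its median over all tiles was also the lowest in brain, 0.769 against 0.795 to 0.815 in the others. The cause of these shifts was not tested. Without brain library 1 the rule found 2383 members (0.314% of all tiles). Of these, 1906 were members with all libraries, and 93 members were lost. The median SD over the other 5 brain libraries was 0.0843.

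**Figure D2:**
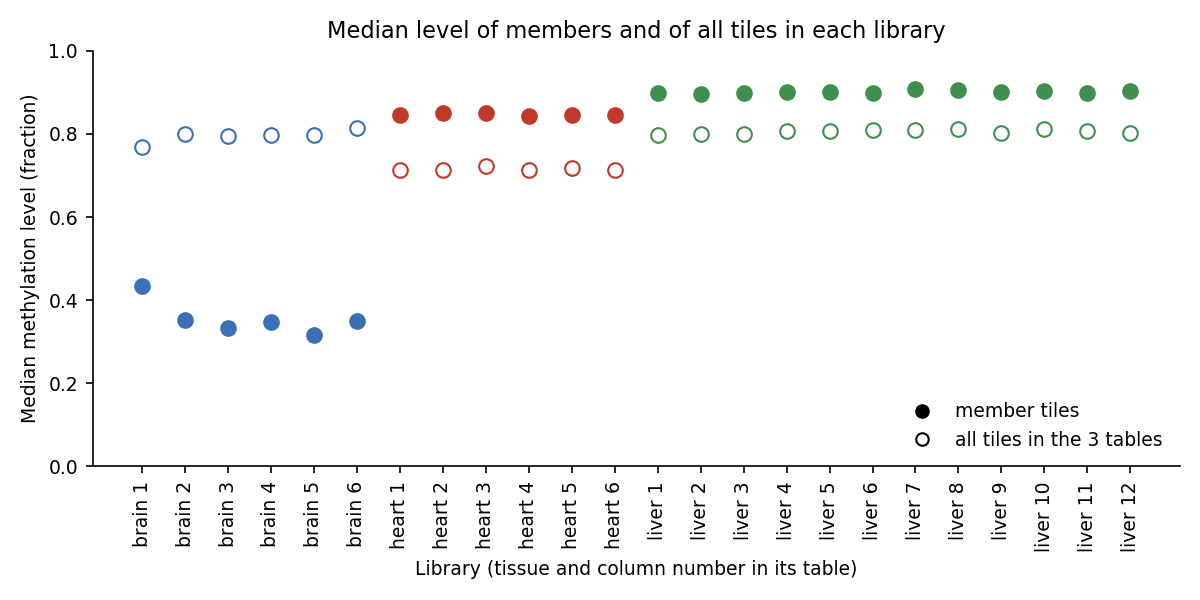
Median methylation level (vertical axis, fraction) over the 1999 members (filled points) and over all 758685 tiles (open points) in each of the 24 libraries (horizontal axis). The members lie far below the other tiles in the 6 brain libraries and above them in the 6 heart and 12 liver libraries, and brain library 1 has the highest brain median at the members, 0.435.

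The members were mostly found away from CpG islands and transcription start sites. Tiles unmethylated in every tissue, as CpG islands mainly are, count among all tiles but could not pass the rule. How much of the differences in position given here comes from that was not tested. Of the members 1.3% touched a CpG island (95% exact binomial interval 0.851 to 1.9%), against 10.5% of all tiles, and 92.0% lay outside both islands and their shores, the 2000 bp on each side, against 81.4%. Of the 26 members in islands, 13 lay in the 2 regions of Zfpm1 and Tnfaip2 described further on. These intervals treat tiles as independent. Where a tile touched several features it was counted once, with promoters ahead of exons and exons ahead of introns, and introns held 50.3% of members (48.1 to 52.5%) and 36.2% of all tiles. Promoters, the 1000 bp upstream of a start, held 3.15% of members against 7.41% of all tiles, coding sequence 8.65% against 10.7%, other exons 2.7% against 3.64%, and the space between genes 35.2% against 42.1%. The nearest start lay within 1000 bp of 6.45% of members and 14.8% of all tiles, and the median distance to it was 32610 bp against 20820 bp. Repeat-masked bases filled at least 50 of the 100 bases in 3.45% of members and 20% of all tiles.

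Tiles with 1 to 6 CpGs held most members, and tiles with 7 or more were less often members. The members held a mean of 2.94 CpGs (SD 1.74, median 3), and all tiles a mean of 3.37 (SD 3.02, median 2). The share of tiles that were members rose from 0.201% with 1 CpG to 0.276% with 2, 0.350% with 3 and 0.353% with 4 to 6. It was 0.0766% with 7 or more, a class in which tiles unmethylated in every tissue could not pass the rule. The brain median of the members differed little between these classes, from 0.351 to 0.373. A single CpG carried the level in 383 members, and at those the median SD over the brain libraries was 0.103, against 0.0968 to 0.0975 in the other classes. The tiles low in liver only and low in heart only had fewer CpGs, with means of 2.47 and 2.35, and touched islands less often, in 0.335% and 0.177%. Introns held 48.2% and 46.0% of them, close to the share of the members. The share of tiles that were members ranged from 0.174% on chromosome 16 to 0.374% on chromosome 13.

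Joined where no more than 1000 bp lay between them, the members formed 1544 regions. Of these regions 1213 were a single tile, 252 held 2, 54 held 3 and 25 held 4 or more. Regions of at least 2 held 39.3% of members, and the same measure was 37.1% for the tiles low in heart only and 53.9% for the more numerous tiles low in liver only. Another member adjoined 586 of the members (29.3%). No such share was computed for covered tiles in general. Whether the members lay closer together than covered tiles do was therefore not tested.

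The low level extended to neighbours that did not pass the rule. The 1034 covered tiles that adjoined a member and were none had medians of 0.423 in brain, 0.727 in heart and 0.830 in liver, and 71.5% of them had a gap of at least 0.2, against 2.28% of all tiles. With 100 to 200 bases between tile and member this share was 51.3%, with 300 to 400 bases it was 18.9% and with 500 to 600 bases 8.42%. The mean levels at 500 to 600 bases were 0.563 in brain, 0.595 in heart and 0.654 in liver, so the difference was mostly gone there. A read can cover adjoining tiles, and near tiles are therefore not independent measurements.

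**Figure D3:**
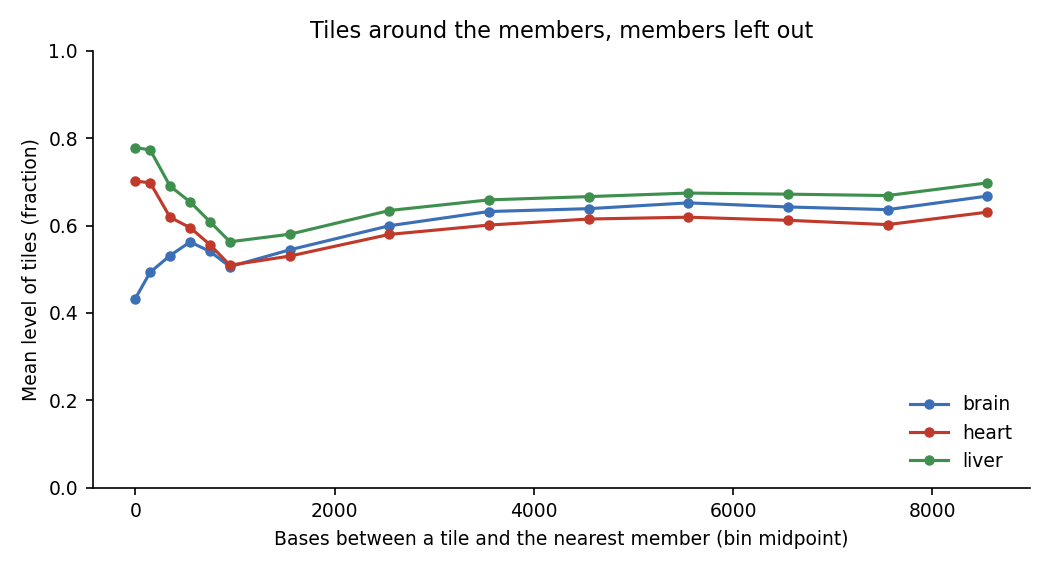
Mean methylation level (vertical axis, fraction) in brain, heart and liver of tiles that are not members, by the number of bases between the tile and the nearest member (horizontal axis, bin midpoint). Adjoining tiles average 0.433 in brain, 0.702 in heart and 0.779 in liver, and from about 500 bases on the brain line runs within 0.1 of both others.

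The region with the most members lay in Zfpm1, which encodes FOG1, a zinc finger cofactor of GATA transcription factors. At chr8:122335601-122337000, in the coding sequence near the 3′ end of the gene, all 11 covered tiles were members, with 110 CpGs between them, and 9 of the 11 lay in a CpG island. The 6 brain libraries, as means over the 11 tiles, ran from 0.258 to 0.485 with a median of 0.351, the heart libraries from 0.843 to 0.883 with a median of 0.861 and the liver libraries from 0.919 to 0.951 with a median of 0.930. The highest brain value was that of library 1, and the tissues did not overlap. In the printed tile of this region, with 9 CpGs, the brain mean was 0.312 ± 0.0985 (SD, n = 6), the heart mean 0.919 ± 0.0219 (SD, n = 6) and the liver mean 0.958 ± 0.0109 (SD, n = 12). Zfpm1 had 84 tiles in all, and 6 others were low in liver only, 2 low in heart only and 2 high in brain only.

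Regions at the start of a gene included 2 with 6 members each. The first, chr1:9601501-9602100, covered the first exon and first intron of Vxn (vexin, a gene of neurogenesis) and an intron of 2610203C22Rik on the other strand, and all 6 covered tiles were members. Its brain libraries ran from 0.133 to 0.301 with a median of 0.218, its heart libraries from 0.789 to 0.888 with a median of 0.829 and its liver libraries from 0.854 to 0.938 with a median of 0.918. The mean gap of 0.622 was the largest among the 10 regions. The second, chr6:28831001-28831700, lay in the coding sequence of Lrrc4, which encodes a postsynaptic adhesion protein that binds netrin-G, inside an intron of Snd1 on the other strand. Of its 7 covered tiles 6 were members, and the brain libraries ran from 0.2997 to 0.441 with a median of 0.352, against 0.894 to 0.945 with a median of 0.919 in heart and 0.956 to 0.984 with a median of 0.971 in liver. Brain library 1 was the highest in the Vxn region, but in the Lrrc4 region, at 0.342, it was not.

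In Tnfaip2, a gene induced by tumour necrosis factor, the 6 covered tiles of chr12:111445701-111446300 were all members and held 50 CpGs, in coding sequence apart from 1 tile in an intron, and 4 of the 6 lay in a CpG island. The brain libraries ran from 0.146 to 0.331 with a median of 0.207, the heart libraries from 0.668 to 0.715 with a median of 0.698 and the liver libraries from 0.735 to 0.861 with a median of 0.812. Minar2, whose protein is a membrane receptor associated with NOTCH2, had 5 of its 6 tiles among the members, across its promoter and first coding exon on chromosome 18. The brain libraries there were the lowest and the tightest of the 10 regions, from 0.0848 to 0.124 with a median of 0.106, against 0.617 to 0.699 with a median of 0.657 in heart and 0.715 to 0.819 with a median of 0.758 in liver. Brain library 1 was the highest in both the Tnfaip2 and the Minar2 region.

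There were 7 regions with 5 members, and the 10 with the largest mean gap among ties took in 6 of them, Minar2 included. The one left out lay in Fgfr2, with a mean gap of 0.486. Of the other 5, 3 were intergenic. At chr10:117478101-117478600 the brain libraries ranged widest, from 0.116 to 0.462 with a median of 0.3995, and none reached the lowest heart value of 0.840 or the lowest liver value of 0.897. At chr17:67500001-67500600 they ran from 0.134 to 0.342 with a median of 0.264, and at chr15:12093101-12094100 from 0.289 to 0.460 with a median of 0.335. Brain library 1 was the highest on chromosomes 17 and 15, and not on chromosome 10. The other 2 lay at the start of the long noncoding gene A330102I10Rik, from 0.224 to 0.291 with a median of 0.263 in brain, and in an intron of 4933406J09Rik, from 0.237 to 0.440 with a median of 0.330. In these 5 regions the heart medians ran from 0.763 to 0.864 and the liver medians from 0.790 to 0.930.

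**Figure D4:**
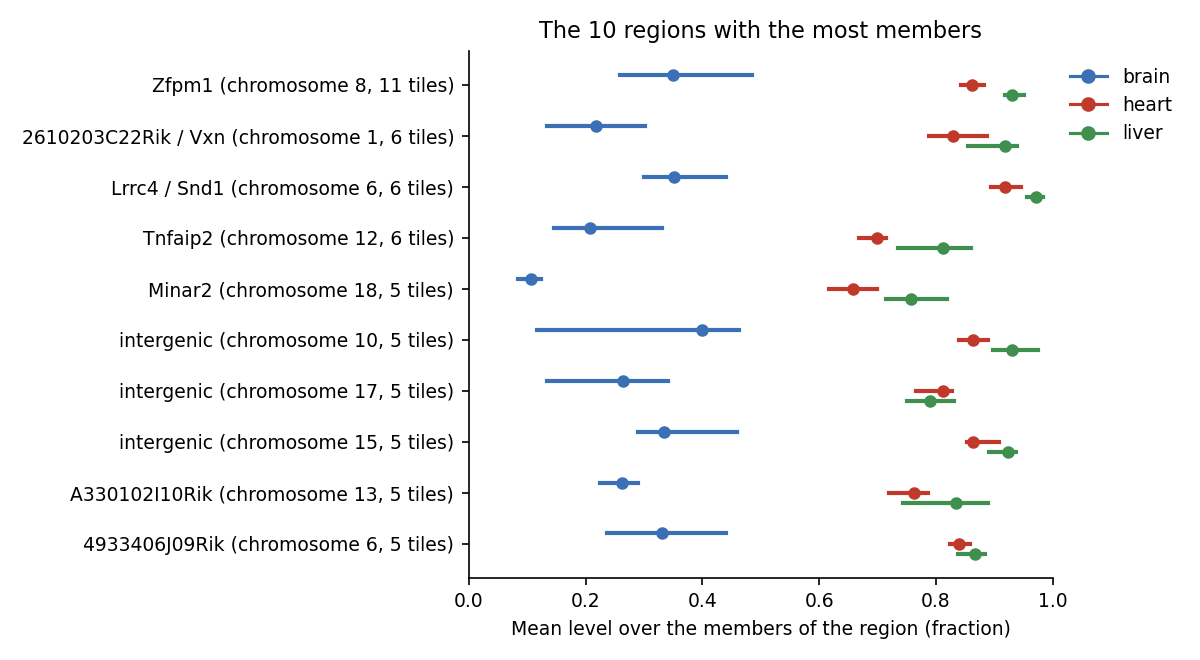
The 10 regions with the most members, each with the mean methylation level over its members (horizontal axis, fraction) in brain, heart and liver. A line spans the lowest to the highest library of a tissue and the point is the median, and in each region the brain line ends below the lowest heart and liver library.

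The single tiles with the largest gap differed in how many CpGs stood behind them. The largest gap, 0.837, came from a tile with 1 CpG in intron 1 of Pura, the gene of the nucleic acid binding protein Pur-alpha, on chromosome 18. It was listed at 0 in 5 brain libraries and at 0.375 in brain library 2, with heart libraries from 0.842 to 0.970 and liver libraries from 0.818 to 1. The next rested on 5 CpGs in exon 4 of Tubb2b, a beta-tubulin of developing neurons, where the brain libraries ran from 0.155 to 0.284 with a median of 0.194, the heart libraries from 0.855 to 1 with a median of 0.973 and the liver libraries from 0.867 to 1 with a median of 0.961, a gap of 0.756. In intron 4 of Mir99ahg, the host gene of Mir99a, the brain libraries ran from 0.107 to 0.480 with a median of 0.148, and the value of 0.480 was that of library 1. The gap there was 0.713, with heart and liver medians of 0.950 and 0.920.

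The Minar2 promoter tile had a gap of 0.712, and 2 adjoining tiles of intron 3 of Foxn3, a forkhead repressor gene, had gaps of 0.700 and 0.683 and were promoter tiles of 3300002A11Rik. Both brain values were highest in library 1, at 0.417 and 0.436, with medians of 0.182 and 0.271 over the 6 libraries. Intron 1 of Ank2, which encodes ankyrin-B, held a tile of 5 CpGs with brain libraries from 0.073 to 0.203 and a median of 0.178, and with heart libraries that spread from 0.647 to 0.950. Intron 1 of Jakmip2 had the tightest brain values outside Minar2, from 0.209 to 0.314, with a gap of 0.672. The other 2 of the 10 tiles lay in the Vxn region and had gaps of 0.691 and 0.675.

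A gene was given the tiles in its body and in the 5000 bp upstream of it. At least 1 member lay in 926 of 22392 genes with tiles (4.14%), 25 genes had 5 or more, and 668 members lay in no gene. Among the 20 genes with the most members, Ank3, which encodes ankyrin-G of the axon initial segment, had 8 members among 282 tiles, with brain libraries, as means over the members, from 0.343 to 0.475. Ank2 had 5 of 176, from 0.274 to 0.425. Cdk5r1, which encodes the neuronal CDK5 activator p35, had 6 of only 18, from 0.182 to 0.377 with a median of 0.269, against 0.806 to 0.826 in heart and 0.794 to 0.875 in liver. Brain library 1 was the highest in Ank3 and in Cdk5r1, and not in Ank2.

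Fnbp1, an F-BAR protein gene of membrane curvature, had 8 members of 104 tiles with brain libraries from 0.270 to 0.506, and Ptprm, a receptor tyrosine phosphatase gene of cell contacts, had 6 of 276, from 0.194 to 0.486. Zdhhc14, a palmitoyltransferase gene, had 6 of 130, from 0.266 to 0.377, and Fgfr2, a fibroblast growth factor receptor gene, had 5 of 84, from 0.191 to 0.428. Scd2, a stearoyl-CoA desaturase gene, had 5 of 19 tiles, with brain libraries from 0.233 to 0.435, heart libraries from 0.769 to 0.850 and liver libraries from 0.761 to 0.873. The highest Scd2 value in brain was that of library 1, and the mean of the other 5 libraries was 0.256.

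Auts2, a gene of neural development, had 7 members of 411 tiles, with brain libraries from 0.289 to 0.498. Atxn1, the ataxin-1 gene, had 5 of 215, from 0.273 to 0.429, and Tcf4, which encodes an E-protein partner of proneural factors, had 5 of 196, from 0.310 to 0.468. In Auts2 and Atxn1 the highest brain library was library 1. The long genes also had most tiles, and among these 20 the share of a gene's tiles that were members was largest in Minar2 (83.3%) and Vxn (6 of 12 tiles), followed by Lrrc4 (37.5%), Cdk5r1 (33.3%), 2610203C22Rik (31.6%), A330102I10Rik (27.8%) and Scd2 (26.3%).

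The lists of neural and glial genes were compared by the share of their tiles that were members, beside 0.263% for all tiles. The share was 0.742% for genes of neuronal adhesion and axon guidance (35 of 4717 tiles, in 15 of 42 genes) and 0.658% for neural transcription factors (17 of 2582, in 8 of 44 genes). It was 0.690% for myelin and oligodendrocyte genes (7 of 1014, in 4 of 30) and 0.817% for astrocyte genes (9 of 1101, in 6 of 28). Of the 7 myelin members, 4 lay in the single gene Nfasc. The astrocyte count rose to 14 tiles (1.27%) without brain library 1, when the share of all tiles also rose, to 0.314%. For neuropeptide and monoamine signalling the share was 0.496% (5 of 1009) and for glutamate receptors 0.418% (9 of 2152). The shares of 0.280% for GABA and glycine signalling (3 of 1073) and 0.268% for voltage-gated channels (9 of 3356) were near that of all tiles, and that of synapse scaffolds and vesicles was lower, 0.156% (4 of 2557). Without brain library 1 the synapse count was 6 tiles (0.235%), and GABA and glycine signalling stayed at 0.280%, both below 0.314%. The share of the channel genes was then 0.328%. The lists with the largest shares also held tiles of the other classes. Adhesion genes had 19 tiles low in liver only, 18 low in heart only and 9 high in brain only. In the same order, the counts were 32, 10 and 1 for neural transcription factors. They were 1, 2 and 0 for myelin genes, and 13, 4 and 5 for astrocyte genes. The counts are small, most listed genes had no member, and no test of the lists was made.

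Among the adhesion genes, Tenm3 and Tenm4 (teneurins, which link synaptic partners), Cntn1 (contactin-1) and Ncam1 (the neural cell adhesion molecule) had 4 members each. Their brain libraries ran from 0.183 to 0.274 in Tenm3, from 0.325 to 0.419 in Tenm4, from 0.176 to 0.393 in Cntn1 and from 0.325 to 0.512 in Ncam1, and no heart or liver library of these 4 genes was below 0.716. Among the transcription factors, Nfia, a nuclear factor I gene of gliogenesis, had 5 members with brain libraries from 0.193 to 0.423, and Bcl11b, the gene of a factor of deep-layer cortical neurons also called CTIP2, had 4 with brain libraries from 0.142 to 0.273. Myt1l, a neuronal zinc finger gene, and Nfix had 2 each.

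In the myelin list, Nfasc, which encodes neurofascin of the nodes of Ranvier, had 4 members with brain libraries from 0.293 to 0.453. In the astrocyte list, Slc4a4, a bicarbonate transporter gene, had 3 with brain libraries from 0.215 to 0.573. Cldn10 had 2, and Tspan2, Tcf7l2 and Mbp, the gene of myelin basic protein, had 1 each. Ntrk2, which encodes the BDNF receptor TrkB, had 3 members with brain libraries from 0.158 to 0.372. Gria1 and Grin2b, which encode subunits of AMPA and NMDA receptors, had 2 each, as did the channel genes Cacna2d2 and Kcnd2.

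None of 225 tiles in microglia genes and none of 1289 tiles in cardiomyocyte genes was a member, and 1 of 605 tiles in hepatocyte genes was (0.165%). Without brain library 1 there were 2 hepatocyte tiles (0.331%, beside 0.314% of all tiles), so that this share was near that of all tiles. The microglia list had too few tiles to show a share as small as 0.263%. The hepatocyte tile lay in Ass1, the argininosuccinate synthase gene of the urea cycle, with brain libraries from 0.177 to 0.6, and the highest was library 1, with a mean of 0.236 over the other 5. The same hepatocyte list held 126 tiles low in liver only, and the cardiomyocyte list 20 low in heart only.

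**Figure D5:**
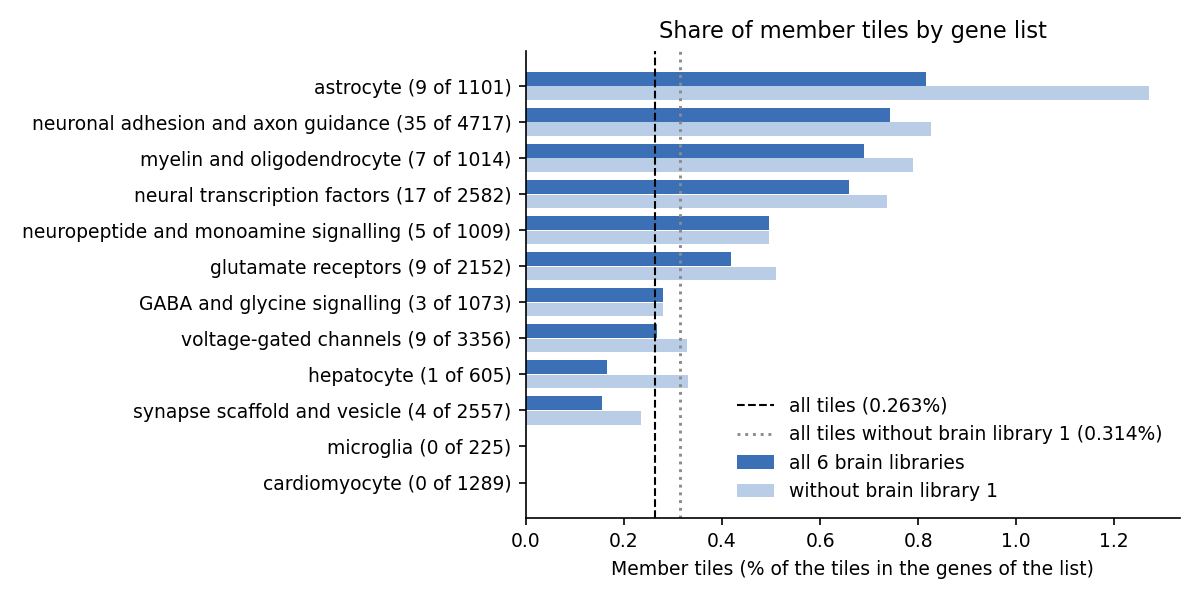
Share of tiles that are members (horizontal axis, percent of the tiles in the genes of a list) for 12 gene lists, with all 6 brain libraries (dark bars) and without brain library 1 (light bars). The counts of members and tiles stand beside each name, and the dashed and dotted lines are the shares of all tiles with all libraries (0.263%) and without library 1 (0.314%). With all libraries, 8 of the 12 lists lie above the dashed line, of which the channel (0.268%) and GABA (0.280%) lists lie close to it.

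Short sequence motifs were counted in the members on both strands and set beside all tiles, and none of these motifs contains another. TTGGCA, a motif of nuclear factor I, occurred in 173 members (8.65%) and in 4.54% of all tiles, with 7.64% of the tiles high in brain only, 6.62% of those low in liver only and 4.94% of those low in heart only. Among tiles with fewer than 50 masked bases, TTGGCA was in 8.7% of members and 5.03% of all. In the same 3 classes, in the same order, it was in 5.48%, 6.96% and 4.97% of such tiles. The A330102I10Rik tile printed above holds TGCCAA, the reverse complement of TTGGCA. The SOX factor motif AACAATG occurred in 49 members (2.45%) and in 1.09% of all tiles, with 1.27%, 1.01% and 1.46% in the same 3 classes. CAGATG, a motif of basic helix-loop-helix factors, occurred in 8.9% of members and in 7.09% of all tiles. It was also in 8.81% of the tiles low in heart only. Among tiles with 4 to 6 CpGs and fewer than 50 masked bases, CAGATG was in 6.72% of members and 6.97% of all. With fewer CpGs the share of members was the higher one, 10.7% against 8.38% with 2 CpGs and 9.45% against 7.77% with 3. With 1 CpG it was in 36 of 360 members, against 8.51% of all such tiles. The related motif CAGCTG occurred in 7.3% of members, 5.38% of all tiles and 7.06% of the tiles low in heart only. A longer motif, the core of the X-box that RFX factors bind, occurred in 6 members (0.3%) and in 0.0472% of all tiles. The 6 tiles included introns of Coro2b, Ago2 and Dym, and their brain means ran from 0.230 to 0.353.

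AGATAAG, a motif of GATA factors, occurred in no member, 0 of 1999. A floor of 3 counts corresponds to a share of 0.15%, and the upper end of the wider exact binomial interval is 0.184%. Both limits treat tiles as independent. AGATAAG occurred in 1.24% of all tiles, in 0.962% of the tiles low in liver only, in 5.18% of those low in heart only and in 14.7% of those high in brain only. Without brain library 1 it was in 0 of 2383 members, and with a gap of 0.3 in 12 of 6279 (0.191%). Base composition differed between members and all tiles, so the motifs were also counted within classes of CpG number among tiles with fewer than 50 masked bases. With 1 CpG, TTGGCA was in 11.7% of 360 members and 5.75% of all such tiles, and AACAATG in 3.61% and 1.68%. With 4 to 6 CpGs, TTGGCA was in 7.68% of 521 members and 4.77% of all such tiles, and AACAATG in 2.3% and 0.823%. AGATAAG was in none of the members of any of these classes, and in 0.829% to 1.48% of all tiles in them. A match describes letters in a window of 100 bp and no bound site. CCGG, a cut site of eRRBS, was in 63.6% of members and 58.1% of all tiles.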

How the data were processed

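DNA methylation was measured by eRRBS in 24 libraries. Library preparation and mapping were done by a sequencing service whose methods are proprietary, and the labels name Bismark, methylKit and mm10. The authors combined CpG calls into tiles of 100 bp, kept tiles at over 10x coverage in all replicates and deposited, per tissue, the methylated fraction (0 to 1) of every tile in each library, on autosomes and without coverage. No per-sample column was left unused.

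Tissue means were taken over all library columns of a table (Python 3.11.15, numpy 2.4.6, pandas 2.3.3, scipy 1.17.1). Of brain, heart and liver tiles 99.9%, 99.9% and 99.8% held a CpG, against 55.0%, 55.1% and 55.2% when moved by 100000 bp, which matched the tiles to GRCm38.p6. Genes came from 43783 curated RefSeq transcripts. CpG islands (15375) were called on repeat-masked sequence by a running score in which a CpG adds 17 and each other base -1, over at least 200 bp with 50% GC and an observed to expected ratio of 0.6. Shares of tiles carry 95% Clopper-Pearson intervals, which cover counting error only. The rule, the merging and the island scan were tested on simulated data. Named regions, tiles and genes were those with most members or the largest gap, and for each list the 3 genes with most members. The members and the gene and motif lists were chosen with earlier results of these data known. Of the listed genes, 10 were not on the autosomes of the annotation used.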

Additional observations from a re-analysis of the deposited data

Results flagged for a closer look

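Among 50 sets of 6 brain or 6 heart libraries examined, 12 held 1 library whose distance from the nearest other took up more than the usual 95% limit of the range, a limit that chance alone passes in about 1 of 20 independent sets. The sets overlap, reuse the same libraries and include tiles that the rule chose, so their number is not compared with chance. In 6 of the 12 that library was brain library 1. Its median over the members was 0.435 (others 0.317 to 0.352), over tiles low in heart only 0.650 (others 0.757 to 0.792) and over tiles high in brain only 0.609 (others 0.718 to 0.773). Its mean in the intergenic region of chromosome 15 was 0.460 (others 0.289 to 0.353). Its level was 0.188 in the Minar2 promoter tile (others 0.104 to 0.130) and 0.417 in the Foxn3 tile (others 0.167 to 0.250).

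Brain library 2 stood apart in 2 tiles, with 0.375 in Pura, where the other 5 were at 0, and 0.073 in Ank2 (others 0.170 to 0.203). Heart library 3 had a median of 0.723 over all tiles (others 0.714 to 0.717), 0.840 over tiles low in liver only (others all 0.833) and a level of 0.855 in the Tubb2b tile (others 0.950 to 1). Heart library 1 had a mean of 0.766 in the intergenic region of chromosome 17 (others 0.809 to 0.827).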

How the results depend on the processing

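The number of members followed the threshold. With a gap of 0.3 the rule gave 6279 members in 4552 regions, with 5829 free of overlap between libraries, 266 members in the neural and glial lists and 2.80 CpGs per member, and with a gap of 0.5 it gave 462, 364, 459, 28 and 3.20. The share in CpG islands was 2.60% with a gap of 0.5, and that in introns 48.0% among tiles with 2 or more CpGs. The motif counts other than TTGGCA were repeated with both gaps and without brain library 1 after the data were seen. Of 259 values computed under an alternative, 246 stayed within 1.5 times the main count or within the interval of the main share, among them all those with liver and heart within 0.1, with medians, with tiles of under 50 masked bases, with only adjoining tiles merged, with promoters of 2000 bp, with islands on unmasked sequence and with gene bodies only.

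Leaving out each of the 24 libraries in turn gave 1869 to 2383 members, 1444 to 1807 regions, 1839 to 2367 members without overlap, 86 to 116 in the lists, 49.6 to 51.1% in introns, 1.18 to 1.68% in islands, 2.90 to 2.95 CpGs per member and 8.24 to 9.72% with TTGGCA. No paired analysis was possible because the columns carry no mouse numbers. Tiles had over 10x coverage in all replicates, but the actual depth is unknown, so no interval was set on a level from 1 CpG such as that of Pura.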
